A study of Mus musculus with 7 samples.

Results

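The genes described here are the 10 core genes of the mammalian circadian clock, measured in ribosome-bound RNA of kisspeptin cells: the activators Arntl, Clock and Npas2, the repressors Per1, Per2, Per3, Cry1 and Cry2, and the REV-ERB genes Nr1d1 and Nr1d2. They were taken from the deposited table by symbol, each symbol matched 1 Ensembl identifier, and they are 10 of the 55384 genes listed. All 10 passed the filter on low counts, which 18282 genes passed. The cells came from punches of the AVPV, the anteroventral periventricular nucleus of the hypothalamus, whose kisspeptin neurons help to trigger the preovulatory surge of luteinizing hormone. The E2 group comprised 3 libraries from females treated with estradiol, and the GDX group comprised 4 libraries from ovariectomized females without estradiol. All females were Kiss1Cre+/Rpl22HA+/+ on a C57BL/6 background, so both groups carried the Kiss1-driven Cre recombinase and the HA-tagged ribosomal protein, and every library pooled punches from 4 brains. The labels do not say whether the E2 females had also been ovariectomized. Age, estradiol dose and duration, and the time of day of collection are not given in the sources used here. Since Cre marks any cell that has ever used the Kiss1 promoter, the tag need not mirror the Kiss1 level at collection, and the pull-down leaves some RNA of other cells.

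The clock is a loop of transcription and repression. ARNTL (also called BMAL1) pairs with CLOCK or with its close relative NPAS2 and binds E-boxes in the promoters of the Per, Cry and Nr1d genes. PER and CRY proteins return to the nucleus and block that activity, while the REV-ERB proteins repress Arntl and further targets through elements they share with the ROR receptors. The RNA of most of these genes therefore rises and falls within each day, and in rodents the surge itself is timed by the suprachiasmatic nucleus, the master clock, which projects to the AVPV.

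The promoter stretches of 4 of the core genes are given here because their levels, described further on, separated the E2 from the GDX libraries. Sequences are from RefSeq on GRCm38.p6, whose promoter table held 9 of the 10 genes; Per2 is not shown. Capitals mark motifs of the clock loop found by search on both strands: the E-box CACGTG, its variant CACGTT and the REV-ERB and ROR element RRE. The variant lies on the other strand in both genes that hold it here, and so reads AACGTG. Npas2, Cry1 and Nr1d1 are shown over the 100 bases before the RefSeq start, and Arntl over 30 bases within the first 50 after it.
Npas2, chr1:39194172-39194271, plus strand: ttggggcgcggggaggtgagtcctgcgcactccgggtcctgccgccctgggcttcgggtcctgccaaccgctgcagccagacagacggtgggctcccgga
Cry1, chr10:85185055-85185154, minus strand: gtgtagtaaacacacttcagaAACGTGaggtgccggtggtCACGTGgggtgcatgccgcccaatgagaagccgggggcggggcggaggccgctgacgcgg
Nr1d1, chr11:98775378-98775477, minus strand: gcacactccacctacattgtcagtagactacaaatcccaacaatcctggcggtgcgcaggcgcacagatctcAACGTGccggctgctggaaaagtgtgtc
Arntl, chr7:113207528-113207557, plus strand: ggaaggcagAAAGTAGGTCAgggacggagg
In windows from 250 bases before to 50 after each start, 7.15% of 32851 RefSeq promoters held the E-box, 4.68% its variant and 0.384% the RRE. The Cry1 window held the E-box and the variant, and the Nr1d1 window held the variant. Of 2 listed Arntl starts, the window of the one shown held the RRE and the other window held no motif. None of these motifs was in the Npas2 window, and neither the D-box TTATGTAA nor the palindromic estrogen response element was in any window of these 4 genes. The Npas2 window begins at base 39194022, inside the gene as annotated by GENCODE, which starts at 39193731. Bases before that annotated Npas2 start were not searched. Core genes whose levels overlapped between the groups also held such motifs. A Per1 window held the E-box, the Cry2 window the variant, and the Per3 window the D-box (0.938% of promoters). The Clock and Nr1d2 windows held none. These matches describe letters only.

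Of the 10 core genes, 2 were higher and 1 lower in E2 than in GDX, and 7 did not pass. The time of day of collection is not given, so a difference in it between the groups cannot be told apart from estradiol. Npas2, which encodes an alternative partner of ARNTL, rose 2.91-fold. Per2, a repressor gene, rose 1.49-fold. Nr1d1, which encodes REV-ERB alpha, fell to 0.746 of its GDX level. Across all genes tested, the same edgeR quasi-likelihood test at a Benjamini-Hochberg adjusted p under 0.05 called 3.88%, with 2.55% higher and 1.33% lower in E2. The share of higher genes among these calls was 65.8%, 52.2% when library sizes were used without scaling factors, 48.2% with DESeq2 and 44.9% without the low-count filter. The median log2 fold change of the 10 genes was 0.053, beside 0.0040 over all genes tested, and 6 of the 10 values were positive and 4 negative.

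**Figure D1:**
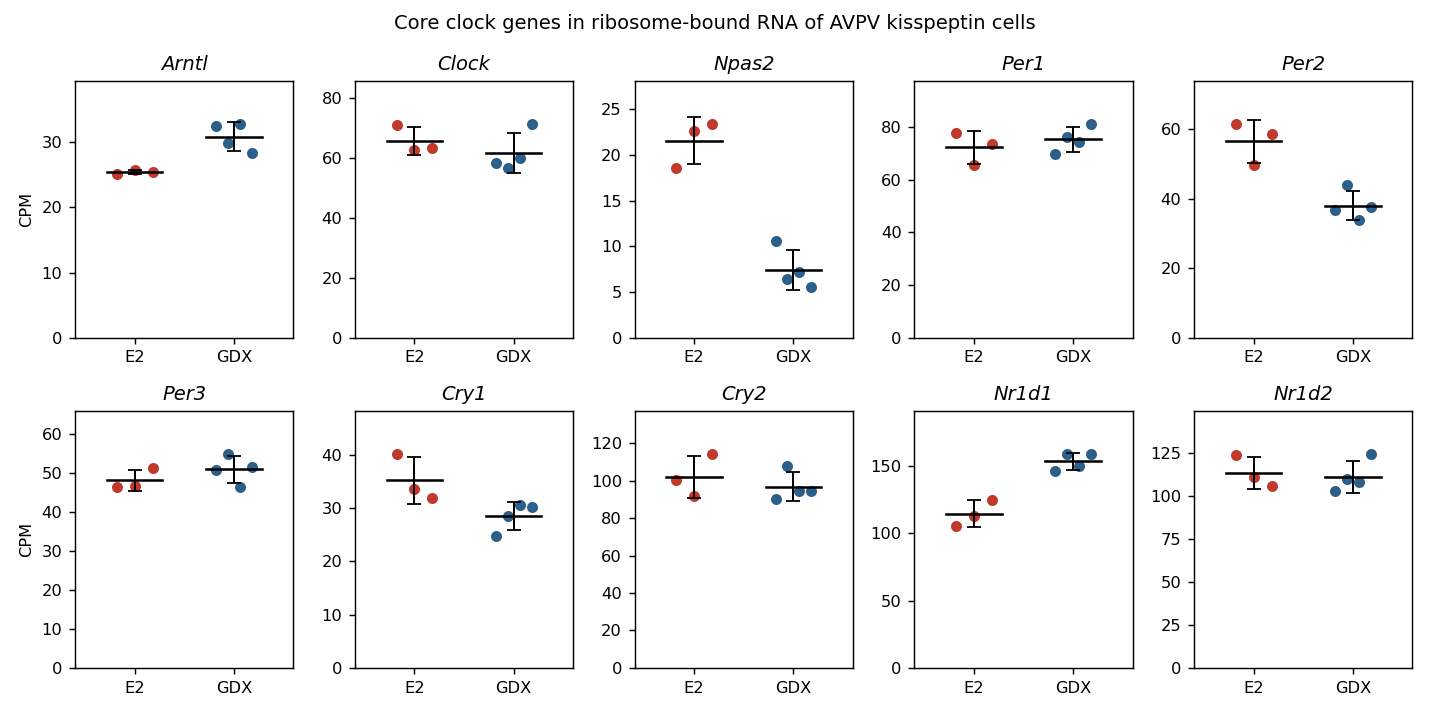
Level of each core clock gene in CPM (linear axis from 0) in the E2 libraries (left in each panel, n = 3) and the GDX libraries (right, n = 4); horizontal bars are group means and whiskers SDs. Every E2 point lies above all GDX points for Npas2 and Per2 and below them for Nr1d1, while levels of Clock, Per1, Per3, Cry2 and Nr1d2 overlap between the groups.

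Among the activators, Npas2 (ENSMUSG00000026077, chromosome 1, 39193731 to 39363236, plus strand, GRCm38) had 18.6, 22.6 and 23.4 CPM in E2 libraries 1 to 3, against 10.5, 6.37, 7.20 and 5.53 CPM in GDX libraries 1 to 4. CPM are counts per 1000000 counts of a library's scaled size. Each E2 library was above every GDX library, and GDX library 1 was the highest of its group. The means were 21.5 ± 2.58 CPM in E2 (SD, n = 3) and 7.41 ± 2.19 CPM in GDX (SD, n = 4). The log2 fold change, E2 over GDX, was 1.54 ± 0.21 (SE), with an edgeR adjusted p of 0.000974. No annotated exon of another gene overlaps Npas2, and its counts, 190 to 708 per library, were whole numbers in all 7 libraries. The call held when each library was left out in turn, with edgeR adjusted p of 0.00023 to 0.0117.

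Clock, whose product is the usual partner of ARNTL, had 71.1, 62.7 and 63.5 CPM in E2 and 58.4, 56.7, 60.1 and 71.4 CPM in GDX. The groups overlapped, and the log2 fold change of 0.09 ± 0.10 did not pass (edgeR adjusted p = 0.723). Arntl, which encodes the shared partner, had 25.2, 25.8 and 25.5 CPM in E2, against 32.5, 29.9, 32.8 and 28.3 CPM in GDX. Every E2 library was below every GDX library, but the log2 fold change of −0.28 ± 0.10 did not pass (edgeR adjusted p = 0.164). Gm45355, the antisense gene that shares 33 bp of exon with Arntl, had no counts in any library.

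The difference between Npas2 and its relatives was itself tested with log2 ratios within each library, with an exact permutation test of the group labels, two-sided. The smallest p this test can give with 7 libraries is 0.0286, and p-values were adjusted over 7 ratios. The log2 ratio of Npas2 over Clock was −1.61 ± 0.28 in E2 (SD, n = 3) and −3.08 ± 0.50 in GDX (SD, n = 4; exact p = 0.0286, adjusted p = 0.04). The ratio of Npas2 over Arntl was −0.25 ± 0.16 in E2 and −2.09 ± 0.32 in GDX, with the same exact p and adjusted p. Per kilobase of exon, Npas2 made up 42.8%, 50.8% and 51.4% of the sum of Npas2 and Clock RNA in the E2 libraries, against 34.1%, 24.4%, 25.5% and 18.2% in the GDX libraries. With the longest annotated transcript as gene length, that share averaged 42.9% in E2 and 21.6% in GDX. The groups did not overlap in either ratio or in the share.

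**Figure D2:**
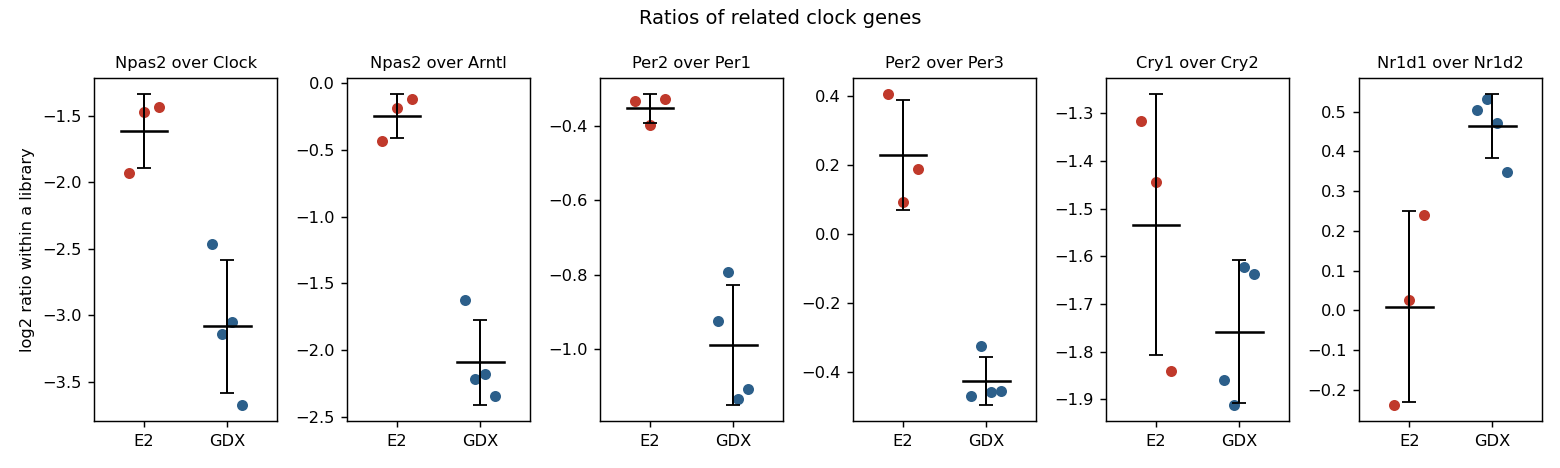
Log2 ratio of 6 pairs of related clock genes within each library (vertical axis, linear in log2 units, a separate range per panel), E2 left (n = 3) and GDX right (n = 4), with means and SDs. All pairs but Cry1 over Cry2 separate the groups; Nr1d1 over Nr1d2 is lower in E2 and the other 4 are higher in E2.

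Among the repressors, Per2 (ENSMUSG00000055866, chromosome 1, 91415982 to 91459324, minus strand) had 61.6, 49.7 and 58.6 CPM in E2, against 36.7, 43.9, 33.8 and 37.6 CPM in GDX. The lowest E2 library was above the highest GDX library. The means were 56.6 ± 6.17 CPM in E2 (SD, n = 3) and 38.0 ± 4.23 CPM in GDX (SD, n = 4). The log2 fold change was 0.58 ± 0.11, with an edgeR adjusted p of 0.0114. That call was lost without E2 library 1 (log2 fold change 0.51, edgeR adjusted p = 0.0909) or E2 library 3 (0.55, 0.0694). Like Npas2, Per2 shares no exon with another annotated gene, and its counts were whole in all libraries.

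Its relatives gave smaller differences. Per1, which like Per2 is induced by light in the suprachiasmatic nucleus, had 77.6, 65.5 and 73.6 CPM in E2 and 69.7, 76.0, 74.4 and 81.2 CPM in GDX, with overlapping groups (log2 fold change −0.06 ± 0.09, edgeR adjusted p = 0.809). Per3, the third family member, had 46.5, 46.6 and 51.3 CPM in E2 and 50.8, 54.9, 46.5 and 51.6 CPM in GDX (−0.08 ± 0.09, edgeR adjusted p = 0.73). The log2 ratio of Per2 over Per1 was −0.35 ± 0.04 in E2 and −0.99 ± 0.16 in GDX, and that of Per2 over Per3 was 0.23 ± 0.16 in E2 and −0.43 ± 0.07 in GDX. Both ratios separated the groups and had an exact permutation p of 0.0286 (adjusted p = 0.04). Several of the 7 ratios share this smallest possible p, and the adjusted p depends on that tie. Npas2, Per2 and Nr1d1 each separated the groups alone, so their ratios are not independent support for their changes.

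The cryptochromes, the main repressors of the ARNTL complexes, did not pass. Cry1 had 40.2, 33.7 and 31.8 CPM in E2, against 24.8, 28.6, 30.6 and 30.3 CPM in GDX. The lowest E2 library stood just above the highest GDX library (log2 fold change 0.30 ± 0.12, edgeR adjusted p = 0.203). Cry2 had 100.1, 91.7 and 114 CPM in E2 and 90.3, 108, 94.3 and 94.4 CPM in GDX, with overlapping groups (0.08 ± 0.09, edgeR adjusted p = 0.764). The ratio of Cry1 over Cry2 overlapped between the groups (exact permutation p = 0.257, adjusted p = 0.3). D930015M05Rik shares 295 bp of exon with Cry2 on the opposite strand and averaged only 0.572 CPM in E2 and 0.317 CPM in GDX.

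Of the REV-ERB genes, Nr1d1 (ENSMUSG00000020889, chromosome 11, 98767932 to 98775333, minus strand) had 105, 113 and 125 CPM in E2, against 146, 159, 150 and 159 CPM in GDX. Each E2 library was below each GDX library. The means were 114 ± 9.96 CPM in E2 (SD, n = 3) and 153 ± 6.41 CPM in GDX (SD, n = 4), for a log2 fold change of −0.42 ± 0.08 (SE; edgeR adjusted p = 0.00979). That call was lost without E2 library 1 (−0.37, edgeR adjusted p = 0.0761) or E2 library 2 (−0.41, 0.0583). Nr1d2, which encodes REV-ERB beta, had 124, 111 and 106 CPM in E2 and 103, 109.8, 108 and 125 CPM in GDX, with overlapping groups (0.03 ± 0.09, edgeR adjusted p = 0.915). The log2 ratio of Nr1d1 over Nr1d2 was 0.01 ± 0.24 in E2 and 0.46 ± 0.08 in GDX (exact permutation p = 0.0286, adjusted p = 0.04).

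Nr1d1 lies tail to tail with Thra, the gene of thyroid hormone receptor alpha, on the opposite strand, and 263 bp of their exons overlap, which is 8.55% of the exon length of Nr1d1. The libraries carry no strand information, so reads from the shared stretch cannot be told apart, and the Nr1d1 counts were not whole numbers in 6 of 7 libraries. Thra had 407, 475 and 480.3 CPM in E2, against 541, 630.02, 629 and 482 CPM in GDX. Every E2 library was below every GDX library, by a small margin between E2 library 3 and GDX library 4, and the log2 fold change of −0.33 ± 0.10 did not pass (edgeR adjusted p = 0.116). Thra passed in 5 of 17 alternative fits, among them DESeq2 (adjusted p = 0.0359) and limma-voom (adjusted p = 0.0417). The log2 ratio of Nr1d1 over Thra was −1.99 ± 0.07 in E2 and −1.89 ± 0.20 in GDX, with overlapping groups (exact permutation p = 0.543, adjusted p = 0.543). A difference between the changes of these neighbours was thus not detected with 7 libraries. If Thra reads were spread evenly over its exons, the shared stretch would hold 25.9 CPM of them in E2 and 32.5 CPM in GDX, against 114 and 153 CPM counted for Nr1d1.

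**Figure D3:**
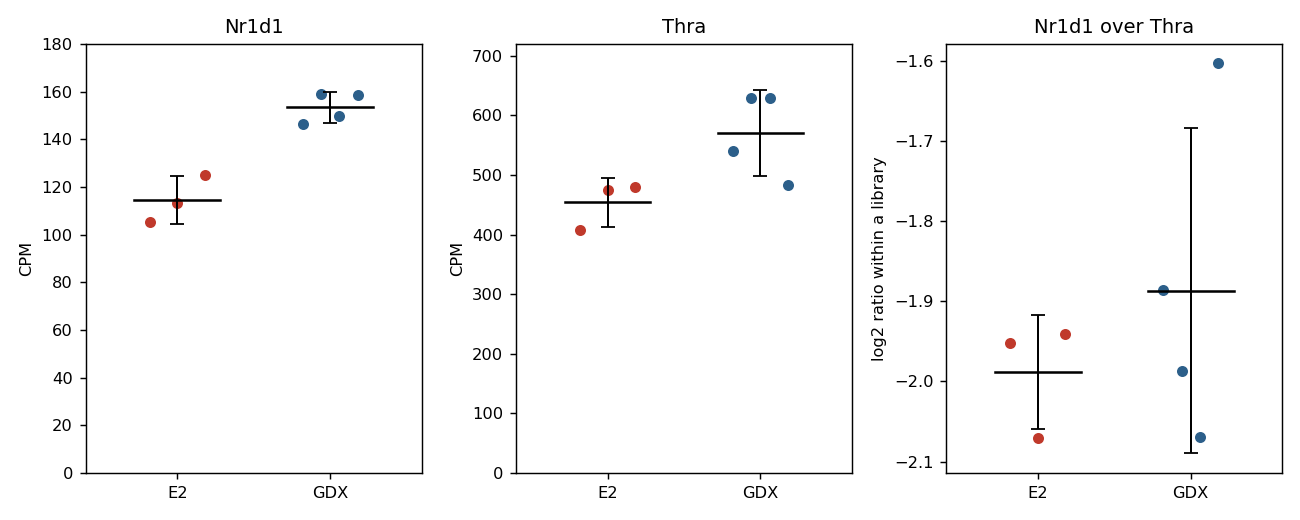
Levels of Nr1d1 and of Thra, which overlaps it on the opposite strand (CPM, linear axes from 0), and their log2 ratio within each library, E2 left (n = 3) and GDX right (n = 4), with means and SDs. For both genes all E2 points lie below all GDX points, while the points of their ratio overlap.

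Levels of 5 of the 10 core genes did not overlap between the groups: Npas2, Per2 and Cry1 were higher, and Arntl and Nr1d1 lower, in every E2 library. Over all genes tested, 16.5% had groups that did not overlap, with 8.43% higher and 8.06% lower in every E2 library. As a description of the arms, mean log2 CPM over the 3 activators was 5.05 ± 0.03 in E2 (SD, n = 3) and 4.58 ± 0.14 in GDX (SD, n = 4), a difference that mixes the rise of Npas2 with the lower Arntl. Over the 5 Per and Cry genes it was 5.88 ± 0.10 in E2 and 5.72 ± 0.09 in GDX, and over the REV-ERB genes 6.83 ± 0.02 in E2 and 7.03 ± 0.08 in GDX. All E2 libraries were above all GDX libraries in the activator mean and below them in the REV-ERB mean, and the Per and Cry mean overlapped. In each arm 1 gene passed the test, and the arm means were not tested.

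Levels were compared between genes only as CPM per kilobase of exon, averaged over the 7 libraries. Nr1d1 was the highest at 44.4, followed by Nr1d2 at 20.8, Cry2 at 15.7, Per1 at 13.1, Cry1 at 9.41, Per2 at 7.85, Per3 at 5.18, Clock at 4.62, Arntl at 3.80 and Npas2 at 2.81 CPM per kilobase. Neighbours in this order overlapped in their ranges over libraries, apart from Nr1d1 and Nr1d2, Nr1d2 and Cry2, and Per2 and Per3. Npas2 averaged 4.49 ± 0.54 CPM per kilobase in E2 (SD, n = 3) and 1.55 ± 0.46 in GDX (SD, n = 4), and Arntl 3.38 ± 0.04 in E2 and 4.10 ± 0.29 in GDX. Npas2 was thus above Arntl in E2 and below it in GDX on this scale. With the longest annotated transcript as gene length it was below Arntl in both groups, at 5.08 against 6.37 in E2 and 1.75 against 7.73 in GDX. That length also exchanged the places of Nr1d2 and Cry2, of Per2 and Per3, and of Clock and Arntl.

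**Figure D4:**
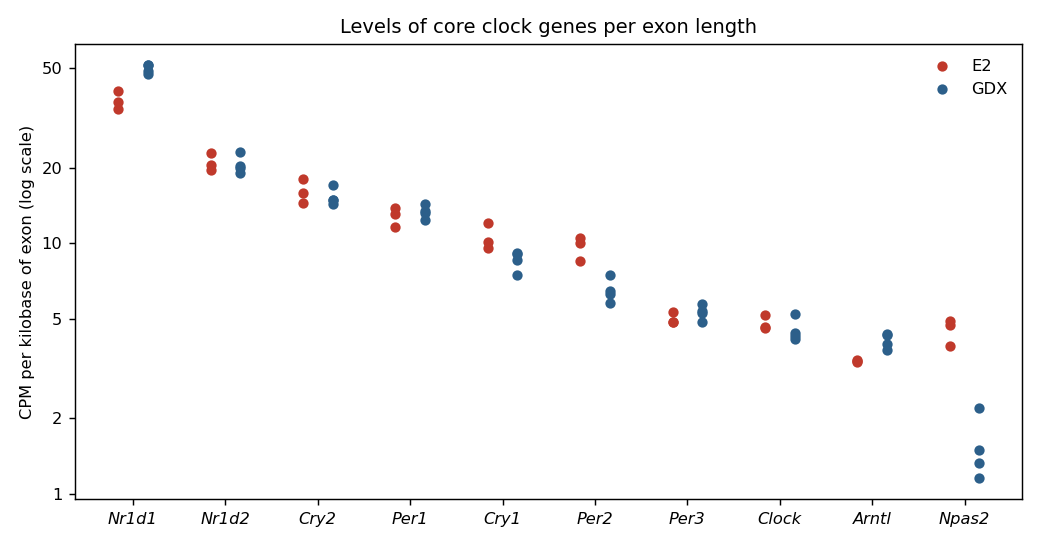
CPM per kilobase of exon (log axis) of each core clock gene in each E2 library (left of each pair, n = 3) and each GDX library (right, n = 4), ordered by the mean over all 7 libraries. Nr1d1 stands above all others, and Npas2 spans the widest range, from 1.15 in a GDX library to 4.88 in an E2 library.

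A list of 24 further clock genes was counted beside the core. It held the additional activator Arntl2, the additional repressors Ciart, Bhlhe40, Bhlhe41 and Cipc, ROR receptors, D-box factors, kinases and ubiquitin ligases that act on clock proteins, and other associated genes. All 24 were tested, none rose and 1 fell, against 2.55% and 1.33% of all genes. Of the 24, 9 had an unadjusted edgeR p under 0.05, and 9 had groups that did not overlap. Over all genes tested the corresponding shares were lower, at 16.8% and 16.5%, and the list as a set was not tested. The DESeq2 Wald test and limma-voom each called 1 of the 24 as higher, and the median log2 fold change of the list was −0.053. The gene that fell was Dbp, a D-box activator and a direct output of ARNTL complexes. Dbp had 100.3, 122 and 109.96 CPM in E2, against 130.4, 167, 155 and 163 CPM in GDX, so that the groups did not overlap. Its log2 fold change was −0.47 ± 0.10, with an edgeR adjusted p of 0.0209. The Dbp call was lost without E2 library 1 (edgeR adjusted p = 0.138), E2 library 3 (0.0995) or GDX library 2 (0.0655). Dbp shares 539 bp of exon with Sphk2 on the opposite strand, which leaves its value uncertain. Sphk2 averaged 36.5 CPM in E2 and 33.6 CPM in GDX (log2 fold change 0.12 ± 0.09, edgeR adjusted p = 0.572), or 4.73 and 4.35 CPM on the shared stretch if its reads were spread evenly.

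Nfil3, which encodes a repressor that acts on D-boxes, had 13.8, 11.2 and 13.1 CPM in E2, against 8.21, 5.23, 9.12 and 5.64 CPM in GDX. The groups did not overlap, and the log2 fold change of 0.85 ± 0.21 missed the threshold (edgeR adjusted p = 0.0512). It was called as higher by DESeq2 (adjusted p = 0.00584) and by limma-voom (adjusted p = 0.0222). Tipin, whose product partners TIMELESS, averaged 7.33 CPM in E2 and 9.53 CPM in GDX (−0.38 ± 0.16, edgeR adjusted p = 0.268). Fbxl21, a ubiquitin ligase gene for CRY proteins, averaged 13.4 CPM in E2 and 10.5 CPM in GDX (0.35 ± 0.15, edgeR adjusted p = 0.262). Arntl2 averaged 7.05 CPM in E2 and 5.60 CPM in GDX (0.34 ± 0.25, edgeR adjusted p = 0.573). Bhlhe41 averaged 64.2 CPM in E2 and 77.4 CPM in GDX (−0.27 ± 0.10, edgeR adjusted p = 0.205). Gm43909 overlaps 1280 bp of Bhlhe41 on the opposite strand, with 2.30 CPM in E2 and 2.90 CPM in GDX.

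**Figure D5:**
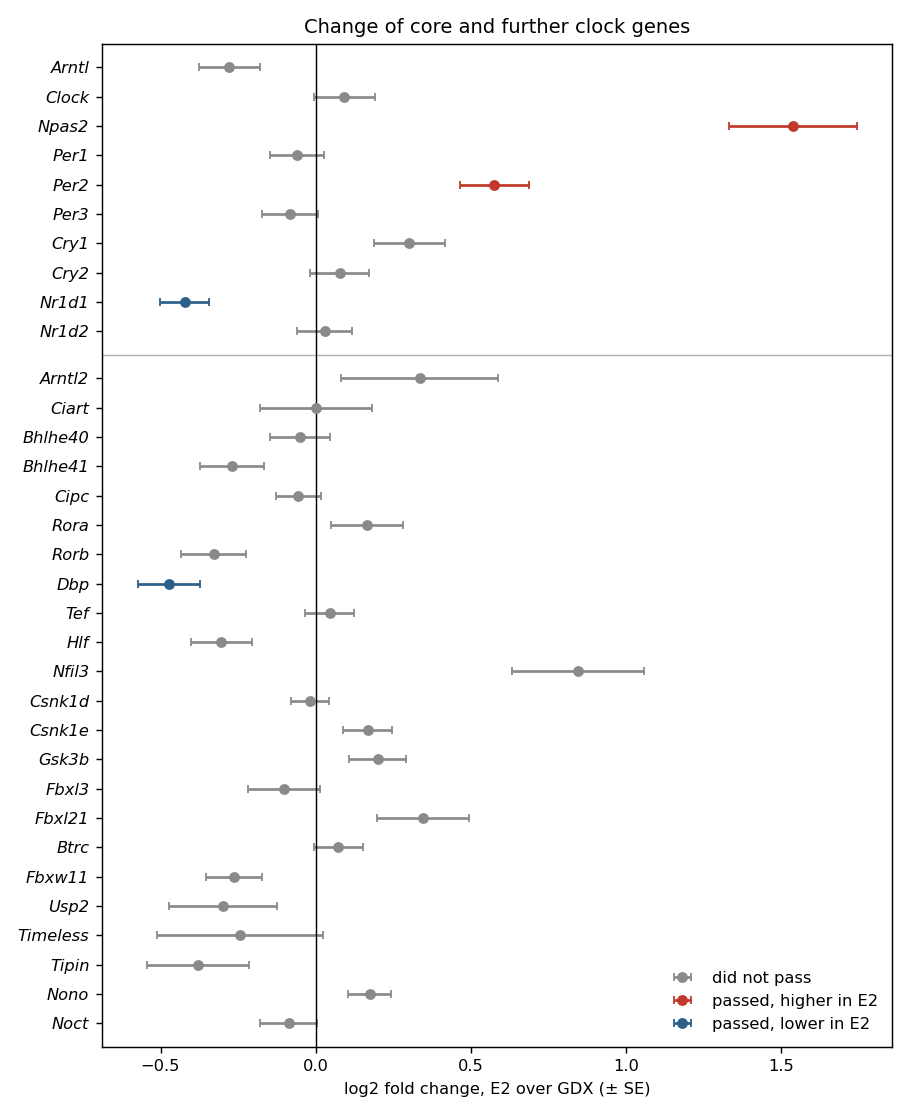
Log2 fold change, E2 over GDX, with its SE, for the 10 core clock genes (above the line) and 23 of the 24 further clock genes (below it), coloured by whether they passed an edgeR adjusted p under 0.05. Npas2 and Per2 are the rises, Nr1d1 and Dbp the falls, and Nfil3 at 0.85 has the largest positive value among those that did not pass.

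The genes with profiles closest to the changed core genes over the 7 libraries were found by the root mean square difference of centred log2 CPM, among 11576 candidates. For Npas2 they were Lamp5, a lysosome-associated membrane protein gene, at 0.141, and Fgd3, an exchange factor gene for small GTPases, at 0.175. Lamp5 averaged 19.0 CPM in E2 and 7.58 CPM in GDX, and Fgd3 82.3 CPM in E2 and 25.7 CPM in GDX. For Per2 they were Col25a1, a transmembrane collagen gene, at 0.0784, and the diacylglycerol kinase gene Dgkd at 0.083. Col25a1 averaged 79.8 CPM in E2 and 50.6 CPM in GDX, and Dgkd 128 CPM in E2 and 84.0 CPM in GDX. For Nr1d1 they were Ccdc65 at 0.041 and Icam5, a neuronal adhesion gene, at 0.0508. Ccdc65 averaged 13.7 CPM in E2 and 18.8 CPM in GDX and did not pass (edgeR adjusted p = 0.0539), and Icam5 averaged 107 CPM in E2 and 149 CPM in GDX. Each of these distances includes the difference between the groups.

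Of 7 markers of AVPV kisspeptin cells, 4 rose with estradiol (Kiss1, Th, Pgr and Gad2), beside 2.55% of all genes tested. Slc32a1 (edgeR adjusted p = 0.731), Esr1 and Rpl22 did not pass. The 5 neuronal markers summed to 2180 to 2378 CPM in E2 and 2011 to 2292 CPM in GDX, with 1 of them, Elavl4, higher. The labels were checked by Kiss1, at 379 to 485 CPM in E2 and 44.5 to 114 CPM in GDX, and by the estrogen target Pgr, at 109 to 132 CPM in E2 and 23.5 to 33.1 CPM in GDX. Esr1, the gene of estrogen receptor alpha, averaged 194 CPM in E2 and 255 CPM in GDX (edgeR adjusted p = 0.0901), and Rpl22, the tagged gene, 34.5 and 30.7 CPM (edgeR adjusted p = 0.451). Totals per library were 30929883 to 33438199 expected counts in E2 and 29207544 to 36213127 in GDX. Counts of the core genes were 190 to 5685 per library, far above the floor of 3 counts, which is 0.0925 to 0.0991 CPM in E2 and 0.0818 to 0.101 CPM in GDX and covers counting error only.

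Summed markers of some other cell types did not overlap between the groups, and the sums were not tested. The 6 astrocyte markers summed to 669 to 775 CPM in E2 and 923 to 2824 CPM in GDX, highest in GDX libraries 1 and 4. Gfap alone had 1323 and 1765 CPM in GDX libraries 1 and 4 and did not pass (edgeR adjusted p = 0.218). Levels of the astrocyte markers Aldh1l1 and Slc1a2 overlapped between the groups. The 5 endothelial markers summed to 86.6 to 144 CPM in E2 and 153 to 394 CPM in GDX, and the 4 ependymal markers to 24.9 to 50.1 CPM in E2 and 51.0 to 99.0 CPM in GDX. Of the astrocyte, endothelial and ependymal markers, only 1 ependymal marker, Rarres2, passed the test. Levels of Pecam1, Cdh5, Slco1a4, Ccdc153 and Tmem212 overlapped between the groups. Over all genes tested, 8.06% were lower in every E2 library. The 6 oligodendrocyte markers (2377 to 2873 CPM in E2, 2582 to 5405 CPM in GDX), 6 microglial markers (62.8 to 84.9 and 59.6 to 77.7 CPM) and 5 markers of the suprachiasmatic nucleus (22.1 to 39.4 and 24.4 to 69.9 CPM) overlapped, none of them passed the test, and no marker was at 0 in all libraries. In bulk RNA, fewer cells of a type and less RNA per cell cannot be told apart. A non-neuronal score, the mean log2 CPM of 23 astrocyte, oligodendrocyte, microglial and endothelial markers, was 5.22 to 5.45 in E2 and 5.54 to 6.32 in GDX, without overlap. With this score as a covariate Npas2 was still called (log2 fold change 1.87, edgeR adjusted p = 0.00444), and the calls of Per2 (0.52, 0.246), Nr1d1 (−0.41, 0.147) and Dbp (−0.58, 0.0743) were lost. The score itself separated the groups, and the part of other cells in these results was not tested.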

How the data were processed

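Ribosome-bound, polyadenylated RNA was sequenced without strand information, per the labels' protocols. The authors deposited expected counts per Ensembl gene, of which 33.1% of non-zero values were not whole (exact remainder). Trimmomatic 0.38, STAR 2.6.0a, RSEM 1.3.0 and mm10 are named in the submitters' processing notes, without roles, and the annotation is not given in the sources used here. GENCODE vM21 (GRCm38) held 55203 of the 55384 identifiers. Counts were rounded and tested in R 4.3.3 with edgeR 4.0.16 (TMM, filterByExpr with a minimum count of 10 and total of 15, robust quasi-likelihood fit, no covariate). The code was also run on simulated independent counts without differences in cell mixture, which bears on the code and not on the calls made here. P-values measure spread between pools. Log2 levels used a prior count of 2 and fitted fold changes 0.125. Alternatives used limma 3.58.1 and DESeq2 1.42.0. The members and lists were chosen with earlier results of these data known. Named were the 10 genes, further clock genes that passed or had the largest change of their role among those that did not, overlapping genes, label checks (1 further clock gene is not reported here), and the 2 closest profiles with a mean of at least 5 CPM.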

Additional observations from a re-analysis of the deposited data

How the results depend on the processing

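Over 17 alternative fits, Npas2 kept its direction and its call (log2 fold change 1.41 to 1.87, adjusted p up to 0.0117). Per2 (0.51 to 0.66) and Nr1d1 (−0.49 to −0.37) kept their direction and each lost the call in 3 fits. With the non-neuronal score as a covariate, 1 core gene was higher and 0 lower, 0 further genes were lower, and 284 genes changed in all, against 710. Leaving out 1 library gave 1 to 2 core genes higher, 0 to 1 lower, 0 to 1 further genes higher, 0 to 1 lower, and 364 (without E2 replicate 1) to 974 (without GDX replicate 3) genes changed in all. The 1 further gene that was higher was Nfil3 without GDX replicate 3 and Gsk3b without GDX replicate 4. All genes changed numbered 1609 without a low-count filter, 1400 with DESeq2, 1082 with limma-voom and 1107 at an adjusted p under 0.1. In each of these 4 settings, and with a minimum mean of 5 CPM, 1 further gene was higher, Nfil3. Without the filter 3 further genes were lower (Dbp, Rorb and Hlf), and with DESeq2 2 (Dbp and Rorb). Per1, Cry2, Nr1d2 and Arntl2, none of them called, changed sign in 1 to 3 fits. The causes were not tested. The 7 ratios kept their sign in every alternative. With the replicate number as a block 612 genes changed, with 2 core genes higher and 1 lower, and Thra then passed (log2 fold change −0.40, edgeR adjusted p = 0.0167). GDX library 4 has no same-numbered E2 library, so its own block absorbed it and it added nothing to that comparison. Deviations of same-numbered libraries correlated at −0.037, −0.12 and −0.14, within the −0.16 to 0.18 of differently numbered ones. No pairing by number was seen, but so few values cannot exclude one. Ratios taken within same-numbered libraries also kept their sign.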

Other observations

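Among peptide genes of the suprachiasmatic nucleus, Vip, which encodes vasoactive intestinal peptide, had 11.2, 8.57 and 11.5 CPM in E2, against 3.90, 8.15, 8.30 and 1.98 CPM in GDX. The groups did not overlap, as in 8.43% of all genes tested in this direction. The log2 fold change of 0.90 ± 0.44 did not pass (edgeR adjusted p = 0.361). Avp, the vasopressin gene, had 22.6, 10.6 and 18.1 CPM in E2 and 31.0, 54.3, 51.8 and 19.7 CPM in GDX, with overlapping groups (−1.19 ± 0.44, edgeR adjusted p = 0.25). Both peptides also occur in cells outside that nucleus. The peptide gene Nms, also among the markers of that nucleus, averaged 0.86 CPM in E2 and 0.83 CPM in GDX (0.05 ± 0.57, edgeR adjusted p = 0.981). Its levels overlapped between the groups, as did those of the markers Lhx1 and Six6, which did not pass either.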
